A study of Mus musculus with 6 samples.

Results

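Fat inside a muscle fibre is stored as triglyceride in lipid droplets, each coated by perilipins (the Plin genes) and, in some cells, by CIDE proteins (Cidea, Cidec), which pass lipid from small droplets to larger ones. Stored triglyceride is broken down stepwise. ATGL (Pnpla2) removes the first fatty acid, hormone-sensitive lipase (Lipe) the next, and G0S2 (G0s2) inhibits ATGL. Perilipins set how far these lipases reach the droplet, and in skeletal muscle the released fatty acids feed mitochondrial oxidation.

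These 10 genes, of 22036 in the deposited table, were taken by symbol: Cidea, Cidec, Plin1 to Plin5, Pnpla2, Lipe and G0s2. They are a family by function, except that Cidea was selected on its rise in the knockout, so its values are a description and carry no test. Read counts come from nanopore cDNA of the quadriceps femoris, a thigh muscle, in 3 libraries of mice labelled Prr14-WT (WT) and 3 labelled Prr14-KO (KO). PRR14 is a nuclear periphery protein, and the study, by its title, is about mechanotransduction, MEF2C and the identity of muscle fibres. The labels used here give no strain, age, sex, knockout allele or treatment, and replicates are numbered 1 to 3 in accession order. They do not say that the libraries are from separate animals, so the spread behind each p-value may be technical.

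The libraries held 1436099 to 1712975 counts. Levels are CPM, counts scaled by a library size that was multiplied by the library's TMM factor. On this scale 3 counts stand for 1.72 to 2.19 CPM. The factors ran from 0.862 in WT replicate 3 to 1.108 in KO replicate 1. The CPM of all genes therefore do not add to the same sum in every library, and are not shares of a library's reads. Prr14 itself had 9, 11 and 12 counts in WT and 4, 10 and 3 in KO. It did not pass (log2 change -1.10 with SE 0.46, adjusted p = 0.196 by edgeR). The library labelled KO replicate 2 was within the WT range in counts and just below it in CPM (6.25, against 6.57 to 8.22). Values without that library are given beside the changes that it moved most. Which part of the gene was removed is not given here. The muscle markers Acta1, Ckm, Myh4, Ttn, Mb, Tnnt3, Mylpf and Atp2a1 summed to 197730 to 251792 CPM in WT and 151131 to 166963 CPM in KO, and of these 8 genes 4 fell and 4 did not pass. Of 6680 genes past the filter on low counts, 6.26% were called in either direction, 2.98% as higher and 3.28% as lower in KO (quasi-likelihood test of edgeR, p adjusted by Benjamini-Hochberg and under 0.05). WT and KO libraries were fully separated for 25.8% of these genes, and all KO libraries were above all WT libraries for 13.5%. With library totals in place of TMM, 653 genes were called higher and 148 lower, against 199 and 219, and the median log2 change over the 6680 genes moved from 0.02 to 0.25. Changes below are therefore relative to TMM.

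Of the 10 genes 9 passed the filter, and Plin1 did not. Of the 8 that remain without Cidea, Plin3 rose, none fell and 7 did not pass. In 2 of the 8, Plin3 and Plin2, every KO library was above every WT library, which was so for 13.5% of all genes tested. The median log2 fold change of the 8 was 0.43, against 0.02 over all genes tested. At 1 of 8 higher, against 2.98% of all genes, the count rests on a single gene.

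**Figure D1:**
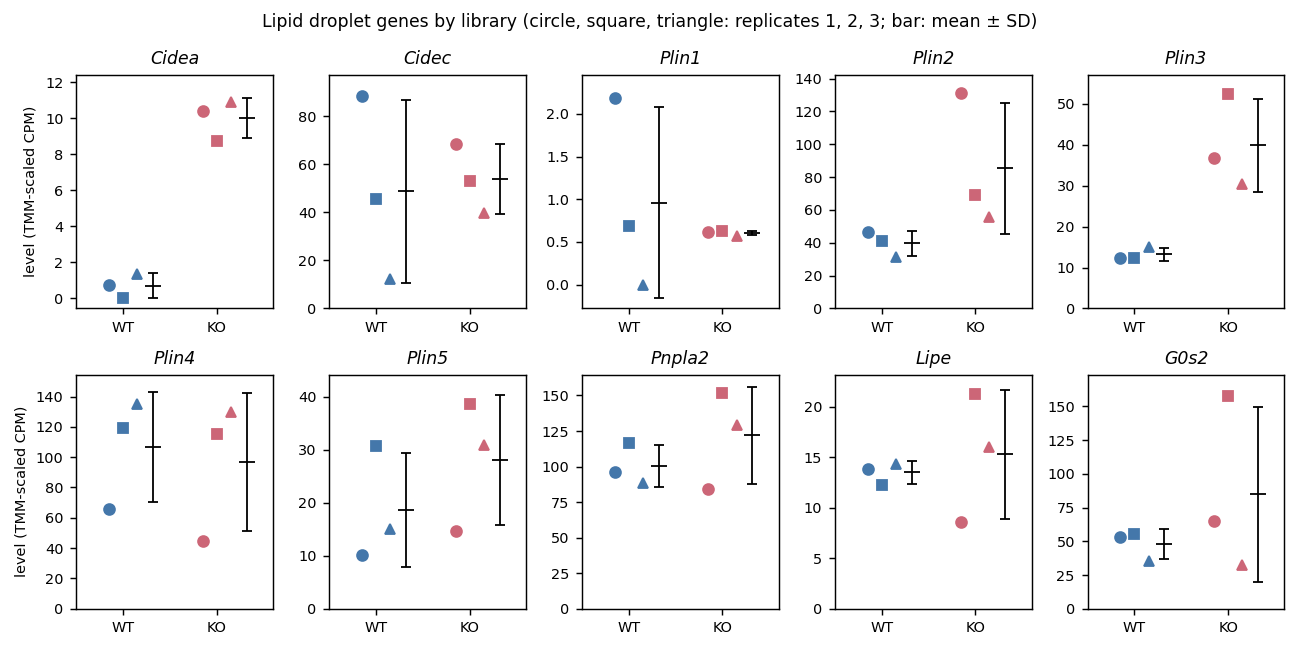
Level of each gene (y axis, TMM-scaled CPM, linear, a separate scale in each panel) in WT (blue) and KO (red). Circles, squares and triangles are replicates 1, 2 and 3, and the bar beside them is the mean ± SD of 3 libraries. Only Cidea, Plin2 and Plin3 have all KO points above all WT points.

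Plin3 encodes a perilipin found in many tissues, which moves between the cytosol and newly formed droplets. It had 17, 18 and 22 counts in WT and 60, 84 and 53 in KO, or 12.4, 12.3 and 15.1 CPM against 36.7, 52.5 and 30.4 CPM. The WT libraries lay close together, and the lowest KO library was above the highest WT library. The mean went from 13.2 ± 1.57 to 39.8 ± 11.4 CPM (SD, n = 3 each; two-sided exact permutation p = 0.1, as low as 3 libraries a group can give). On the log2 scale the change was 1.58 (SE 0.26, adjusted p = 0.00157 by edgeR), a 2.99-fold higher level with a 95% interval of 2.04 to 4.38. The call held in all 14 alternatives, with adjusted p up to 0.0144. Without the library labelled KO replicate 2, which was highest, the log2 fold change was 1.33 (adjusted p = 0.0061 by edgeR). Plin3 lies on GRCm38 chromosome 17, from 56277476 to 56292873, on the minus strand.

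Plin2 encodes the main droplet coat protein of cells other than adipocytes, and the protein is kept from degradation by lipid. Its counts were 64, 60 and 46 in WT and 214, 111 and 97 in KO. That is 46.7, 40.9 and 31.5 CPM against 131, 69.3 and 55.6 CPM. All KO libraries were above all WT libraries, and KO replicate 1 stood well above the other two KO libraries. The means were 39.7 ± 7.67 and 85.3 ± 40.1 CPM (SD, n = 3 each; two-sided exact permutation p = 0.1, again the lowest attainable). The log2 fold change of 1.102 (SE 0.33) did not pass (adjusted p = 0.0986 by edgeR), with a 95% interval of 1.27-fold to 3.62-fold before adjustment for the number of genes. It passed in 3 of 14 alternatives: with DESeq2 (adjusted p = 0.0105), with no filter (adjusted p = 8.20e-07 by edgeR) and without KO replicate 3 (adjusted p = 0.0166 by edgeR). With no filter the log2 fold change was nearly the same (1.095) and the SE smaller (0.19), so the low p did not come from a larger change. What else in that fit lowered it was not tested. Without KO replicate 1 the log2 fold change was 0.65 (adjusted p = 0.0883 by edgeR). Plin2 is on GRCm38 chromosome 4, 86648386 to 86670060, minus strand.

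Plin3 has 2 perilipin neighbours on chromosome 17. Plin4 (56100591 to 56109803) and Plin5 (56111601 to 56117596) lie 1.80 kb apart, and Plin5 ends 160 kb before Plin3, all 3 on the minus strand. Plin4 had 90, 175 and 197 counts in WT and 73, 185 and 226 in KO, and Plin5 had 14, 45 and 22 in WT and 24, 62 and 54 in KO. Both overlapped between the genotypes, unlike Plin3. Plin4, a repeat-rich perilipin of adipocytes and muscle, averaged 107 ± 36.3 CPM (WT) against 96.6 ± 45.5 CPM (KO) (log2 change -0.14 with SE 0.48, adjusted p = 0.915 by edgeR). Its 95% interval ran from 0.391-fold to 2.10-fold, and its sign turned with library totals (0.10), without WT replicate 3 (0.06) and without KO replicate 1 (0.20). Plin5, the perilipin of oxidative tissues that holds ATGL at the droplet, averaged 18.6 ± 10.7 CPM (WT) against 28.1 ± 12.3 CPM (KO) (log2 change 0.58 with SE 0.46, adjusted p = 0.552 by edgeR; 95% interval 0.722-fold to 3.10-fold). Without the library labelled KO replicate 2 the log2 fold changes were -0.29 for Plin4 and 0.29 for Plin5. Plin4 shares 17 exon bases with Hdgfl2, on the other strand, and whether counting used strand is not stated in the labels.

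The sequences before the starts of these 4 perilipin genes are shown because Plin2 and Plin3 were, Cidea apart, the pair whose libraries did not overlap, while Plin4 and Plin5 are close neighbours of Plin3 that did. Each is the 250 bases before an annotated start in RefSeq (GRCm38.p6), 5′ to 3′ on the gene's strand, which is the minus strand for all 4. Positions are chr4:86670060-86670309 for Plin2, chr17:56290512-56290761 for Plin3, chr17:56109783-56110032 for Plin4 and chr17:56117549-56117798 for Plin5, the upstream of 2 starts listed for that gene. Bases just after the start were found in a GENCODE transcript for Plin2, Plin3, Plin4 and the other Plin5 start. Those after the Plin5 start shown were not. In GENCODE the gene begins inside the window for Plin4 and Plin5, at the window's last base for Plin2 and upstream of the window for Plin3. The CAAT boxes marked for Plin3 and Plin4 therefore lie inside the GENCODE gene. Capitals mark the nuclear receptor hexamer AGGTCA and the CAAT box CCAAT, on either strand.
Plin2: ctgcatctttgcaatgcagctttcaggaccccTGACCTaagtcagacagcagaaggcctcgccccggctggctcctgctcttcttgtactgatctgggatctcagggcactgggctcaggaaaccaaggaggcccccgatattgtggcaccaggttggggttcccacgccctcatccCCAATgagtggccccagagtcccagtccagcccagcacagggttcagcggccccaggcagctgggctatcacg
Plin3: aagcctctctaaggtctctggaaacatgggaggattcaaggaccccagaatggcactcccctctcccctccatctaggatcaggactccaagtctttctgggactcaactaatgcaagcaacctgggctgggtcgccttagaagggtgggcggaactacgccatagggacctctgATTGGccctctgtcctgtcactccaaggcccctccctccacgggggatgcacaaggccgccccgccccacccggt
Plin4: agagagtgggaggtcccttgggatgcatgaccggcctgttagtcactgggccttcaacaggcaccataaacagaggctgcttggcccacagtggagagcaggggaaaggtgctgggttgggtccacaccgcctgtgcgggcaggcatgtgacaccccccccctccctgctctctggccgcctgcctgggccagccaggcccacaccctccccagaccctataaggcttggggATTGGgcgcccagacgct
Plin5: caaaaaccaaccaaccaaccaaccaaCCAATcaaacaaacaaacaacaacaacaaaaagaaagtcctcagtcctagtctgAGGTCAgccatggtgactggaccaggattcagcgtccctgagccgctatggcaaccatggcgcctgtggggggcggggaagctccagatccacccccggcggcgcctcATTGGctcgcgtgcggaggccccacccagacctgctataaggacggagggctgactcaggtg

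All 4 windows held a CAAT box, as did 33.8% of 32851 promoter windows of this length, and Plin2 and Plin5 held the hexamer, as did 14.0%. RefSeq windows were available for 9 of the 10 genes, 12 windows in all. Over the 12, 4 held a CAAT box and 2 the hexamer, and the window of the other Plin5 start held neither. Among the 12, none held the direct repeat bound by PPAR and RXR, searched as 2 copies of AGGNCA 1 base apart (0.338% of all windows), and none held the MEF2 element, searched as CTA and TAG 4 bases apart (3.20% of all windows). The cAMP response element core TGACG was in the G0s2 window, and in 17.8% of all windows. These are matches of letters in 250 bases, both strands read, and say nothing of whether a factor binds.

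As a share of the reads of the 5 perilipin genes (188 to 443 per library), Plin3 took 9.04, 6.02 and 7.67% in WT and 16.1, 19.0 and 12.3% in KO. Every KO share was above every WT share. The means were 7.58 ± 1.51% and 15.8 ± 3.34% (SD, n = 3 each; two-sided exact permutation p = 0.1, again the lowest attainable). The other main coats varied within a genotype. Plin2 took 16.0 to 34.0% in WT and 22.5 to 57.5% in KO, and Plin4 took 47.9 to 68.6% and 19.6 to 52.4%. In each genotype the library with the most Plin2 had the least Plin4: WT replicate 1 and KO replicate 1. Over the 6 libraries the Pearson correlation of their log2 CPM was -0.72. As a description, that of Plin5 with Pnpla2 was 0.89 and that of Plin3 with Plin2 was 0.73; each pair of values comes from the same library and the genotype difference is in them.

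**Figure D2:**
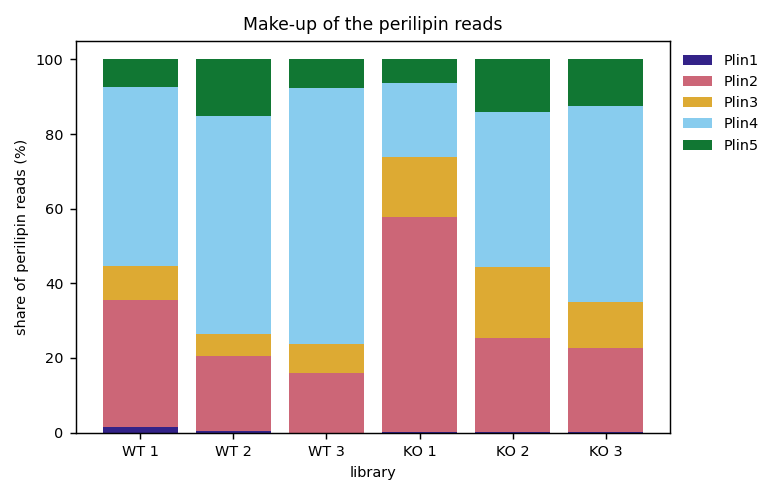
Share of perilipin reads (y axis, %) taken by each of the 5 perilipin genes in each library (x axis, 3 WT and 3 KO). The Plin3 segment is 6.02 to 9.04% in WT and 12.3 to 19.0% in KO, while Plin2 and Plin4 differ between libraries of the same genotype, with KO replicate 1 highest in Plin2 at 57.5%.

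Plin1 (GRCm38 chromosome 7, 79720218 to 79732903, minus strand), the perilipin of adipocytes, was at the limit of detection. It had 3, 1 and 0 counts in WT and 1 in each KO library, which is at or under 2.19 CPM in every library. The 4 WT and 3 KO counts give a ratio of 0.647 with an exact binomial 95% interval of 0.0948 to 3.83, which covers counting error only, so no difference was detectable at this depth. The adipocyte genes Cidec and Adipoq were at 12.3 to 88.3 and 14.4 to 56.9 CPM in the same libraries. Why Plin1 was lower than these was not tested.

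Cidea encodes a CIDE protein known from brown fat. It had 1, 0 and 2 counts in WT and 17, 14 and 19 in KO, or 0.730, 0 and 1.37 CPM against 10.4, 8.74 and 10.9 CPM. Every KO library was above every WT library, and the KO libraries differed little among themselves (10.01 ± 1.12 CPM, SD, n = 3). Pooled over the libraries, 3 WT and 50 KO counts give a KO level 14.4 times that of WT, with an exact binomial 95% interval of 4.65 to 72.1 that covers counting error only and is no test, since the gene was chosen for this difference. The gene passed the filter through the KO libraries alone. In bulk tissue, more cells of a type and more RNA per cell cannot be told apart. Ucp1, the uncoupling protein that defines brown fat, had 0 counts in all 6 libraries, which allows up to 1.72 to 2.19 CPM in each, and the 6 brown adipocyte markers (Ucp1, Elovl3, Otop1, Zic1, Kcnk3, Dio2) summed to 0 to 4 counts in WT and 1 to 7 in KO.

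Cidec (GRCm38 chromosome 6, 113424634 to 113435760, minus strand), the CIDE protein of white adipocytes, varied widely in WT. It had 121, 67 and 18 counts in WT and 112, 85 and 69 in KO, and the KO libraries lay inside the WT range. The means were 48.8 ± 38.1 and 53.7 ± 14.5 CPM (log2 change 0.15 with SE 0.69, adjusted p = 0.944 by edgeR; 95% interval 0.314-fold to 3.90-fold). Its sign turned without WT replicate 3 (log2 fold change -0.32) and without KO replicate 1 (-0.07). Reads of adipocyte markers were present in each library, and the sum of these markers moved with Cidec. The sum of 10 of them (Adipoq, Cfd, Retn, Lep, Fabp4, Acvr1c, Thrsp, Adig, Pparg and Slc7a10) was 332 to 1140 CPM in WT and 640 to 1037 CPM in KO (two-sided exact permutation p = 0.7), and WT replicate 3 was lowest and WT replicate 1 highest for both. Adiponectin (Adipoq) was at 56.9, 40.2 and 14.4 CPM in WT and 49.6, 49.97 and 28.1 CPM in KO. As a description over 6 libraries, the Pearson correlation of Cidec with the marker sum was 0.97 on a log2 scale, against 0.25 for Cidea, 0.65 for Plin2 and 0.35 for Plin3. For the other members it was 0.79 (Plin1, at the limit of detection), 0.62 (G0s2), 0.21 (Pnpla2), -0.02 (Plin5), -0.07 (Lipe) and -0.65 (Plin4). Cidec also had 0.73 with the summed fibroblast markers, 0.67 with macrophage, 0.59 with slow and oxidative fibre and 0.32 with endothelial markers. Of the 10 markers 8 were tested and none passed. Acvr1c had 0 counts in WT replicate 3, and Slc7a10 had 0 in WT replicate 3 and KO replicate 3. Cfd, at 533, 261 and 86.3 CPM in WT and 398, 439 and 262 CPM in KO, was the largest marker except in WT replicate 3. The part of fat cells in these values was not tested.

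**Figure D3:**
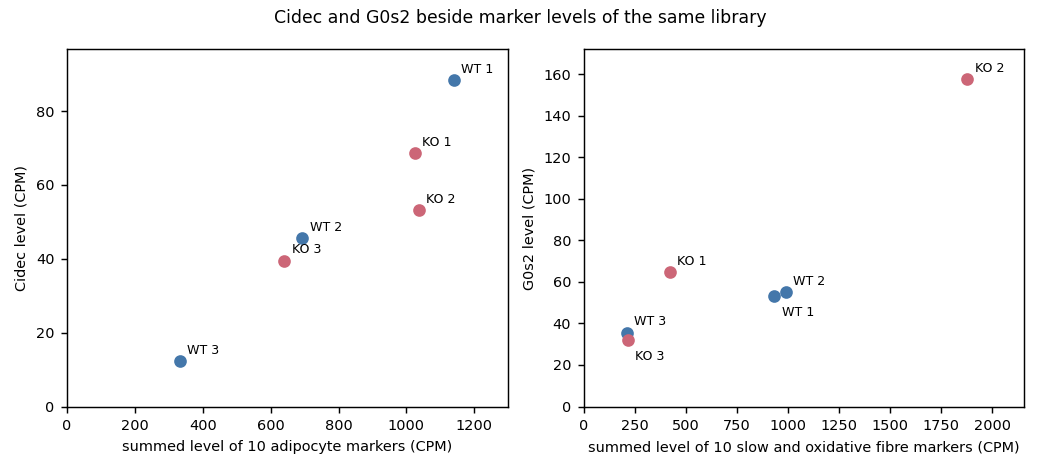
Left, Cidec level (y axis, CPM) against the summed level of 10 adipocyte markers (x axis, CPM); right, G0s2 level against the summed level of 10 slow and oxidative fibre markers. Each point is a library (WT blue, KO red, labelled with its replicate), both axes are linear, and WT replicate 3 is lowest on both axes at left while KO replicate 2 stands apart on both at right.

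Neither lipase passed. Both are on GRCm38 chromosome 7, Pnpla2 from 141455198 to 141460743 on the plus strand and Lipe from 25379527 to 25398710 on the minus strand. Pnpla2 had 132, 171 and 129 counts in WT and 138, 243 and 226 in KO. Those libraries overlapped, with KO replicate 1 below every WT library in CPM (84.4, against 88.3 to 117). The means were 100.4 ± 14.6 and 122 ± 34.3 CPM (log2 change 0.28 with SE 0.20, adjusted p = 0.493 by edgeR; 95% interval 0.899-fold to 1.64-fold), and the log2 change was 0.09 without the library labelled KO replicate 2. Lipe had 19, 18 and 21 counts in WT and 14, 34 and 28 in KO, which overlapped too, at 13.5 ± 1.099 and 15.3 ± 6.37 CPM (log2 change 0.18 with SE 0.32, adjusted p = 0.823 by edgeR; 95% interval 0.704-fold to 1.82-fold). Its sign turned without the library labelled KO replicate 2 (-0.12). At this depth a change in Pnpla2 of more than 1.64-fold upwards lies outside the interval, whereas a change of Lipe is bounded less closely. An antisense gene shares 918 exon bases with Lipe, and its reads could not be told apart without strand.

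The ATGL inhibitor G0s2 (GRCm38 chromosome 1, 193272161 to 193273217, minus strand) did not pass, and its change rested on a single library. It had 73, 81 and 52 counts in WT and 106, 252 and 56 in KO, or 53.3, 55.2 and 35.6 CPM against 64.9, 157 and 32.1 CPM. The genotypes overlapped, and KO replicate 3 was below every WT library. On the log2 scale the change was 0.81 (SE 0.66, adjusted p = 0.594 by edgeR; 95% interval 0.527-fold to 5.86-fold), and 0.01 without the library labelled KO replicate 2 (adjusted p = 0.995 by edgeR). That library also had the most slow and oxidative fibre RNA: the sum of Myh7, Myl2, Myl3, Tnnt1, Tnni1, Tnnc1, Tpm3, Atp2a2, Myoz2 and Myh2 was 1878 CPM there, 210 to 988 CPM in WT and 215 and 420 CPM in the other KO libraries. The adipocyte marker sum of KO replicate 2 was also the highest in KO (1037 CPM, against 1026 and 640). Plin3, Plin5, Pnpla2 and Lipe were highest in KO replicate 2 too. On a log2 scale the Pearson correlation of G0s2 was 0.85 with the slow and oxidative fibre sum and 0.62 with the adipocyte sum. With the slow and oxidative fibre sum it was 0.13 for Plin3, 0.28 for Plin5, 0.47 for Pnpla2 and 0.31 for Lipe. The part of either list in G0s2 was not tested. G0s2 reads per Pnpla2 read were 0.553, 0.474 and 0.403 in WT and 0.768, 1.04 and 0.248 in KO (two-sided exact permutation p = 0.5), so the balance of inhibitor to lipase reads did not separate the genotypes.

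**Figure D4:**
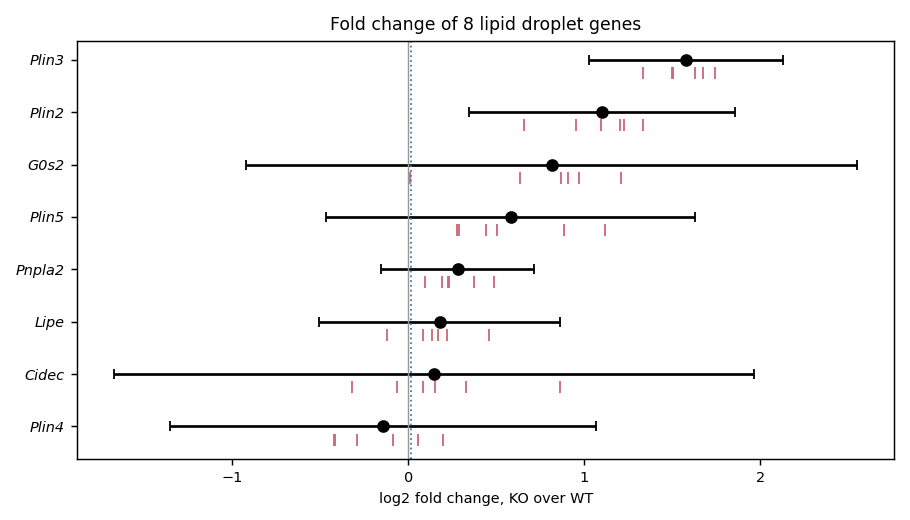
Log2 fold change of KO over WT (x axis) for the 8 genes past the filter other than Cidea, with 95% intervals from the edgeR fit (black). Red ticks are the values with each of the 6 libraries left out in turn, and the dotted line is the median of all genes tested (0.02). Plin3 and Plin2 have intervals above 0, of which Plin3 passed after adjustment, and the ticks of G0s2 reach 0.01.

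Of 50 tested genes in 4 lists of lipid storage, 6 passed (12%, against 6.26% of all genes tested), and no test was made of whether these lists differ from other genes. Of 14 tested of the 20 genes of lipolysis, Prkar1a rose, Ces1d fell and 12 did not pass (14.3% called; median log2 fold change 0.32, against 0.02 over all genes tested). Ces1d, a carboxylesterase that can hydrolyse triglyceride, was at 45.2, 32.7 and 59.6 CPM in WT and 19.0, 21.9 and 22.3 CPM in KO, with no overlap (log2 change -1.12 with SE 0.24, adjusted p = 0.0104 by edgeR, and 0.0532 without WT replicate 3). Prkar1a encodes a regulatory subunit, not a catalytic one, of protein kinase A, the kinase that activates lipolysis in response to cAMP. It was at 131, 123 and 147 CPM in WT and 197, 203 and 180 CPM in KO. Its log2 fold change was 0.53 (SE 0.13, adjusted p = 0.0236 by edgeR), and the call was lost with DESeq2 (adjusted p = 0.0801) and without WT replicate 1, WT replicate 2 or the library labelled KO replicate 2 (edgeR adjusted p 0.0670 to 0.194). The other listed subunits of protein kinase A, Prkaca, Prkacb and Prkar2a, did not pass (log2 fold changes 0.31, -0.21 and -0.38). Abhd5, the coactivator of ATGL, did not pass (24.3 ± 5.08 and 33.9 ± 7.27 CPM, adjusted p = 0.282 by edgeR), nor did the monoglyceride lipase Mgll (log2 fold change 0.28, adjusted p = 0.619 by edgeR).

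Of 13 tested of the 19 matched genes of triglyceride synthesis and droplet formation, Acsl3 fell, none rose and 12 did not pass (7.69% called, against 6.26% of all genes; median log2 fold change 0.10). Acsl3, an acyl-CoA synthetase found on forming droplets, was at 16.1, 14.99 and 21.9 CPM in WT and 6.73, 7.50 and 8.59 CPM in KO. The genotypes did not overlap (log2 change -1.20 with SE 0.30, adjusted p = 0.0252 by edgeR). The call was lost with DESeq2 (adjusted p = 0.0818) and without WT replicate 3 or any 1 KO library (edgeR adjusted p 0.0539 to 0.107). The droplet-forming genes Fitm1 and Fitm2 did not pass (log2 fold changes -0.06 and 0.24), nor did the triglyceride synthase Dgat2 (-0.22). Agpat3 and Lpin1 did not pass either (log2 fold changes 0.62 and 0.39, adjusted p = 0.207 and 0.126 by edgeR). In both, all KO libraries were above all WT libraries, which was so for 13.5% of all genes tested.

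Of 12 tested of 15 other droplet-associated genes, Spart and Vcp rose, none fell and 10 did not pass (16.7% called, all higher, against 2.98% of all genes called higher; median log2 fold change 0.05). Spart encodes spartin, which takes part in droplet turnover, and it was at 24.1, 31.4 and 26.7 CPM in WT and 47.1, 55.6 and 37.2 CPM in KO (log2 change 0.76 with SE 0.21, adjusted p = 0.0447 by edgeR). Vcp, an ATPase that extracts proteins for degradation throughout the cell, was at 306, 288 and 297 CPM in WT and 477, 347 and 398 CPM in KO (log2 change 0.46 with SE 0.12, adjusted p = 0.0428 by edgeR). Neither overlapped between genotypes, but both sat near the threshold: Spart passed in 6 of 14 alternatives and Vcp in 5 of 14. Without the library labelled KO replicate 2, Spart did not pass (log2 fold change 0.62, adjusted p = 0.137 by edgeR).

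Of 11 tested of 18 transcription factors and coactivators of lipid genes, Rxrg fell, none rose and 10 did not pass (9.09% called, all lower, against 3.28% of all genes called lower; median log2 fold change -0.21). Rxrg, a retinoid X receptor of muscle, which pairs with PPARs and other nuclear receptors, was at 71.5, 62.0 and 71.2 CPM in WT and 33.0, 33.1 and 25.2 CPM in KO. The genotypes did not overlap (log2 change -1.16 with SE 0.18, adjusted p = 0.000903 by edgeR), and the call held in all 14 alternatives. Ppara, Pparg and Ppargc1a, regulators of fatty acid genes, did not pass (log2 fold changes -0.02, 0.37 and -0.33), and Ppard was too low to be tested. Ppargc1b did not pass either, and its change was upwards (log2 fold change 0.85, adjusted p = 0.236 by edgeR). Of the 11 tested, 4 had a positive and 7 a negative log2 fold change. Tfeb, a regulator of lysosomal genes, did not pass (log2 fold change -0.71, adjusted p = 0.0931 by edgeR).

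**Figure D5:**
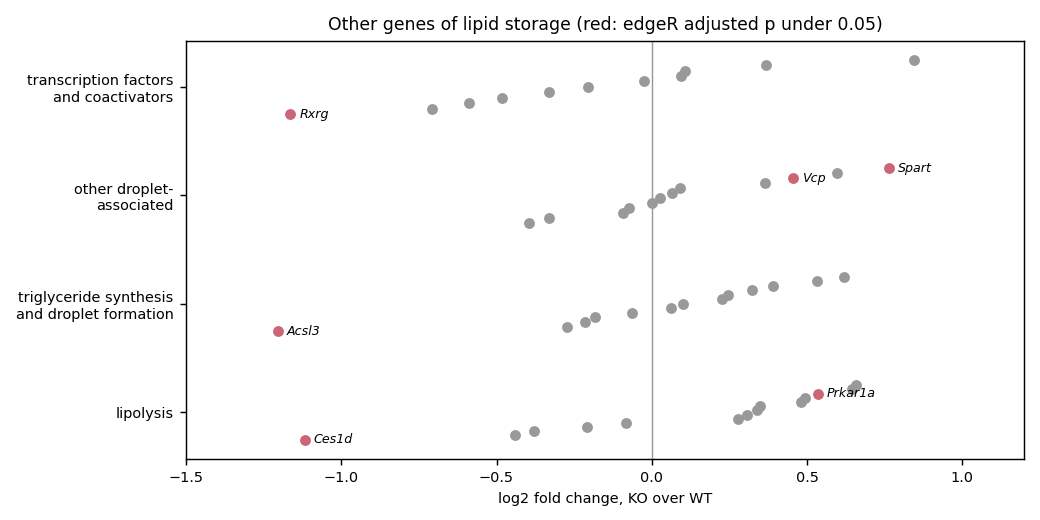
Log2 fold change of KO over WT (x axis) for the tested genes of 4 lists of lipid storage genes (y axis), each point a gene, ordered within its list. Named red points passed (edgeR adjusted p under 0.05): Ces1d, Acsl3 and Rxrg lie below -1, and Prkar1a, Vcp and Spart lie between 0 and 1.

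The genes whose log2 CPM followed Plin2 most closely over the 6 libraries, among 5376 with at least 10 counts in each, were Slc25a17, Apbb1 and Yaf2 (Pearson r 0.99 each). For Plin5 they were Fitm2, Hdhd2 and Klhdc1 (Pearson r 0.98, 0.98 and 0.97). These are the highest of many correlations over 6 libraries and a description only.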

How the data were processed

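Per the labels' protocols, TRIzol RNA from quadriceps was template-switched, amplified in 14 PCR cycles and read on a PromethION. The submitters' processing notes name minimap2, DESeq2 1.6.3 and GRCm38; no counter, annotation or strand setting is named there. Per the file headers, values are raw counts for each Ensembl gene, as the authors deposited them. The deposited CPM, scaled by the authors to a fixed total per library, were not used.

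The main test was that of edgeR 4.0.16 in R 4.3.3, after filterByExpr (minimum count 10, total 15), TMM scaling and a robust quasi-likelihood fit by genotype, with Benjamini-Hochberg adjustment over 6680 genes at 0.05. The steps were tested on simulated counts with known changes. Of genes changed 1.5-fold 3 of 48 were called, of those changed 2-fold 27 of 48, and of those changed 4-fold 46 of 47. Of 126 calls 5 were false. A gene that did not pass may therefore still have changed by 1.5-fold or 2-fold. SE is the log2 fold change over the square root of F. Intervals are at 95%. DESeq2 1.42.0 and voom in limma 3.58.1 were alternatives. Symbols of listed genes came by Ensembl identifier from a reference table holding 22022 of the identifiers; positions are GENCODE M21 on GRCm38. Ldaf1 was not matched and is not analysed here.

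Members and lists were chosen with earlier results of these data known, so no p is adjusted over them. Named were all members and every called gene of the 4 lipid lists; other list genes were named after their values were seen. Fibroblast, macrophage and endothelial markers summed to 1411 to 2286, 158 to 527 and 323 to 369 CPM over the 6 libraries, overlapping between genotypes.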

Additional observations from a re-analysis of the deposited data

How the results depend on the processing

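The counts of called genes and the log2 fold changes of the members past the filter and of the 6 called list genes were recomputed under 14 alternatives: 3 other scalings, 2 filters, 2 tools, robust=FALSE and each library left out in turn. Plin3 and Rxrg kept their calls in all 14, while Cidec, Plin4, Plin5, Pnpla2, Lipe and G0s2 were called in none. Over all genes, 199 higher and 219 lower calls became 653 higher with library totals and 344 higher and 362 lower with no filter, and leaving out a library gave 83 (without WT replicate 2) to 179 higher and 154 to 187 lower. Besides Plin3, Plin2 was called with no filter and with DESeq2 (2 genes in all), and leaving out a library gave 1 to 2. In lipolysis the 1 higher call became 2 with no filter, 0 with DESeq2 and 0 to 1 with a library left out, and the 1 lower call 0 to 1. In triglyceride synthesis the 1 lower call became 0 with DESeq2 and 0 to 1 with a library left out, and library totals added 1 higher. The 2 higher droplet-associated calls became 3 with library totals, 1 with DESeq2 size factors, 0 with DESeq2, voom or robust=FALSE, and 0 to 1 with a library left out. With a library left out, log2 fold changes ran from -0.32 to 0.86 for Cidec, -0.42 to 0.20 for Plin4 and -0.12 to 0.46 for Lipe, each changing sign; Plin4 was also positive (0.10) with library totals. For Cidea, whose fitted values depend on the few WT counts, they ran from 3.12 to 4.54. The cause of these shifts was not tested. The replicate numbers were given in accession order, so no replicate block was fitted. Genes under about 10 counts a library, Plin1 and Cidea in WT among them, are limited by depth, and without molecular identifiers the binomial intervals cover counting error only.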
